A study of Rattus norvegicus with 12 samples.

Results

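The DNAJ co-chaperones, also called HSP40 or J-domain proteins, were examined in rat retinas taken after experimental traumatic optic neuropathy (TON). Members were all genes of the expression table whose symbol begins with Dnaja, Dnajb or Dnajc followed by a digit, which gave 45 of 22714 genes, together with all m6A peaks that carried the same symbols. A J-domain protein delivers a misfolded or newly made client to an HSP70 chaperone and stimulates HSP70 to hydrolyse ATP, so that the client is gripped, and nucleotide exchange factors then release it. Classes A and B hold general co-chaperones of the cytosol, nucleus and endoplasmic reticulum (ER), and class C holds specialists of vesicles, mitochondria, spliceosomes and ribosomes. Some members are induced by heat shock factor 1 or by the unfolded protein response, and neurons, photoreceptors included, also use members for synaptic vesicles and clathrin uncoating.

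The rats were male Sprague-Dawley animals of 7 to 8 weeks. In the TON group the optic nerve was exposed and clamped for 10 s at 2 mm behind the eyeball, and in the sham group, which GEO calls control, the same surgery was done without the clamp. Retinas were taken at 12 h, and each sample pooled the retinas of 4 rats, with 3 samples in the sham group (sham 1 to sham 3) and 3 in the TON group (TON 4 to TON 6). Each sample gave an input library, from which mRNA levels were computed as FPKM (fragments counted per kilobase of transcript and scaled to the size of the library), and a library immunoprecipitated for N6-methyladenosine (m6A), a methyl mark on mRNA, from which peaks were called. A p-value from these samples measures the spread between pools of rats.

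The input libraries held an estimated 3162861 to 4757806 fragments. All 6 rod photoreceptor markers were detected in every library, with a summed level of 22070 to 22800 FPKM in sham and 22991 to 23669 FPKM in TON, as the label retina implies. Markers of other tissues were also detected, highest in sham 1 for lens and for ocular surface epithelium and highest in TON 5 for skeletal muscle. Over all 15900 genes tested, limma called 7 genes different at a Benjamini-Hochberg adjusted p under 0.05, which is 0.044%.

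Of the 45 DNAJ genes, 42 passed the filter on low values, which asked for a group mean of 0.1 FPKM or more in sham or in TON. Dnajb8, Dnajc5b and Dnajc5g were listed at 0 in all 6 libraries. The mean over the 6 libraries was at least 50 FPKM for 6 members, between 10 and 50 FPKM for 29, between 1 and 10 FPKM for 6, and below 1 FPKM for 1, Dnajc22. The median of the 41 members with a mean of at least 1 FPKM was 26.2 FPKM. Levels held steady for many members, and the coefficient of variation over the 6 libraries was under 15% for 19 of these 41.

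**Figure D1:**
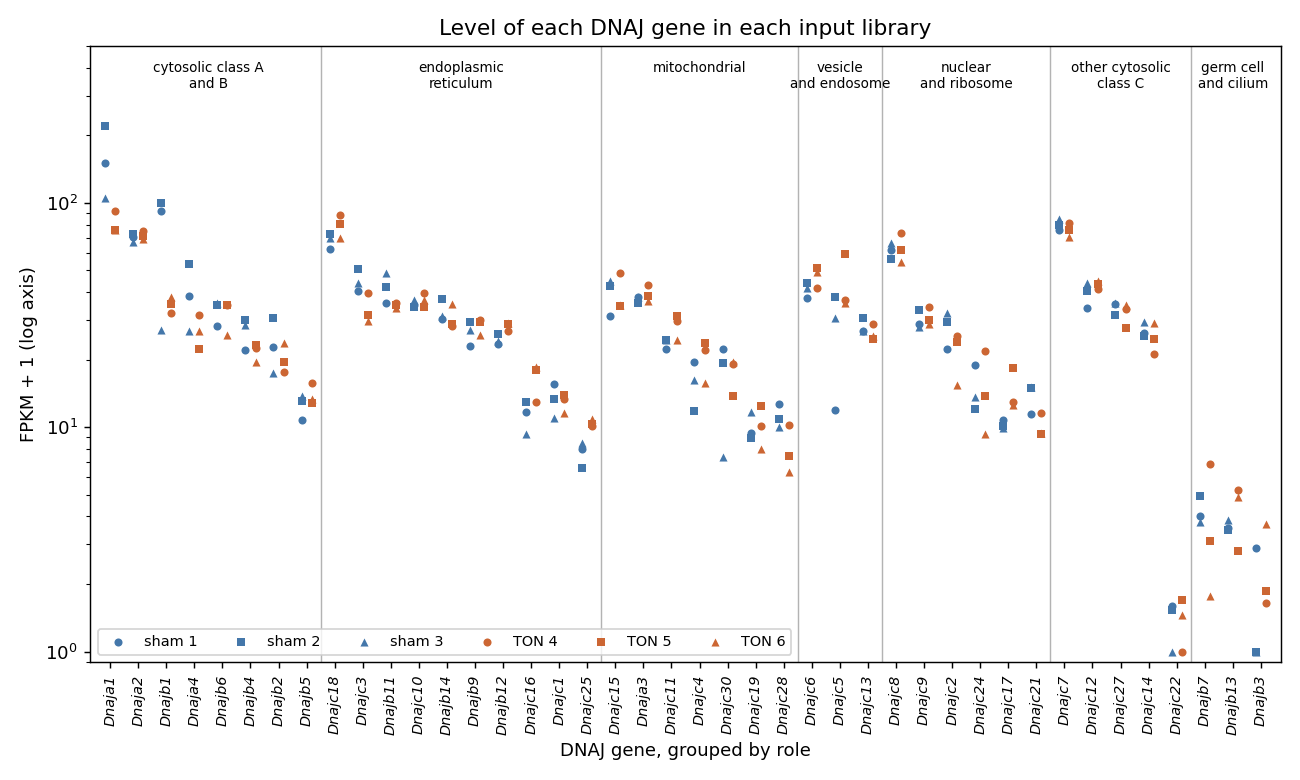
FPKM + 1 on a log axis for the 42 DNAJ genes with a level above 0, grouped by role, with 1 point per input library (blue, sham; orange, TON). Dnaja1 had the highest mean level, and its 3 sham points and those of Dnajb1 are widely spread, while Dnaja2, Dnajc7 and Dnajc10 have 6 points close together.

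No DNAJ gene was called between TON and sham (limma, adjusted p at least 0.35 for all 42). At an unadjusted p under 0.05, 3 members were higher in TON (Dnajc16, Dnajc17 and Dnajc25) and 3 were lower (Dnaja1, Dnajc3 and Dnajc21), beside 7.06% of all genes higher and 3.29% lower. The libraries of the 2 groups did not overlap for 4 members that were higher in TON (the same 3 and Dnajb12) and 3 that were lower (Dnaja1, Dnajc3 and Dnajb11), beside 10.8% and 5.33% of all genes. These counts are shares of 9.52% and 7.14% of the 42 members, close to the shares among all genes. The median log2 difference was 0.01 over the members and 0.06 over all genes. The direction of such counts depended on the scaling. When the log2 values of each library were centred on their median, 0 members were higher and 6 lower at an unadjusted p under 0.05, beside 3.94% and 5.68% of all genes, and 2 members were higher and 5 lower without overlap, beside 6.69% and 11.0%.

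**Figure D2:**
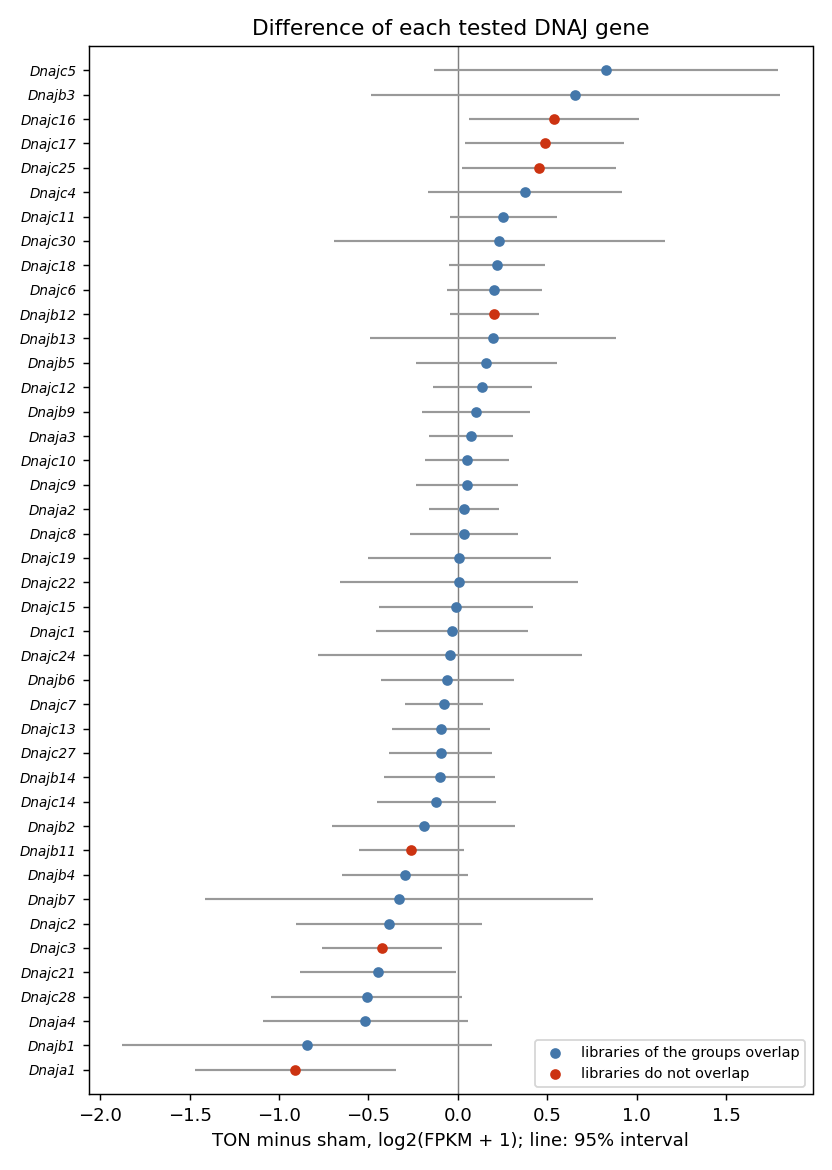
Difference between TON and sham for the 42 tested DNAJ genes on the log2(FPKM + 1) scale, with the 95% interval from limma as a line. The points run from Dnaja1 at -0.91 to Dnajc5 at 0.83, and red marks the 7 genes whose 6 libraries do not overlap between the groups.

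Of the cytosolic co-chaperones of classes A and B, Dnaja1 and Dnajb1 had the largest log2 differences, and neither was called. Dnaja1 was the 1 of these 8 whose groups did not overlap. Of the 10 members listed under the ER, 2 were lower and 3 higher in TON without overlap. Over all genes, 5.33% were lower and 10.8% higher without overlap. Dnaja1 is a farnesylated class A co-chaperone of HSC70 and Dnajb1 is the classic heat-inducible HSP40. Dnaja1 stood at 149.9, 218.2 and 104.3 FPKM in sham 1 to sham 3 and at 91.3, 74.2 and 74.8 FPKM in TON 4 to TON 6. All 3 sham libraries lay above all 3 TON libraries, and sham 3 lay nearest to them. The mean was 157 ± 57.3 FPKM (SD, n = 3) in sham and 80.1 ± 9.70 FPKM in TON, and the log2 difference was -0.91 ± 0.24 (SE; limma adjusted p = 0.35).

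Dnajb1 was measured at 90.6, 98.9 and 26.1 FPKM in sham and at 31.2, 34.2 and 36.8 FPKM in TON. The groups overlapped because sham 3 lay below every TON library, while sham 1 and sham 2 were far above them. Within the sham group the highest library was 3.78 times the lowest, and within the TON group 1.18 times. The log2 difference was -0.84 ± 0.45 (SE), with an adjusted p of 0.56 by limma. Without sham 3 it was -1.45, at an adjusted p of 0.018 by limma, and Dnajb1 was then the 1 DNAJ gene called, beside 0.0439% of genes called lower in that fit. One library therefore decided this call.

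Dnaja4, a class A co-chaperone that is singled out here after its values were seen, showed a like order of libraries. Its levels were 37.5, 52.4 and 25.9 FPKM in sham and 30.6, 21.3 and 25.8 FPKM in TON. Sham 2 was again the highest library and sham 3 lay among the TON libraries. The log2 difference was -0.52 ± 0.25 (SE; limma adjusted p = 0.53).

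Dnajb2, a neuronal member that sorts ubiquitinated clients, was at 21.8, 29.8 and 16.4 FPKM in sham and at 16.7, 18.5 and 22.8 FPKM in TON. Sham 2 was the highest library and sham 3 the lowest, as in Dnajb1, but sham 1 lay within the TON range (log2 difference -0.19; limma adjusted p = 0.78). Dnajb4, a heat-inducible class B co-chaperone, was at 21.1, 29.1 and 27.6 FPKM in sham and at 21.6, 22.1 and 18.6 FPKM in TON. Here sham 1, not sham 3, was the low sham library and lay inside the TON range. Dnajb2 and Dnajb4 were also singled out after their values were seen. Dnaja2, the constitutive class A partner of HSC70, was at 69.4, 71.9 and 65.8 FPKM in sham and 73.9, 70.5 and 68.1 FPKM in TON. The sham libraries of Dnaja2 had the order of those of Dnaja1, but the groups overlapped, with a coefficient of variation of 4.05%, and its log2 difference was 0.04 with a 95% interval from -0.16 to 0.23. Dnajb6, which holds back the aggregation of polyglutamine proteins, and Dnajb5 overlapped between the groups, with means of 31.5 and 12.2 FPKM over the 6 libraries.

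**Figure D3:**
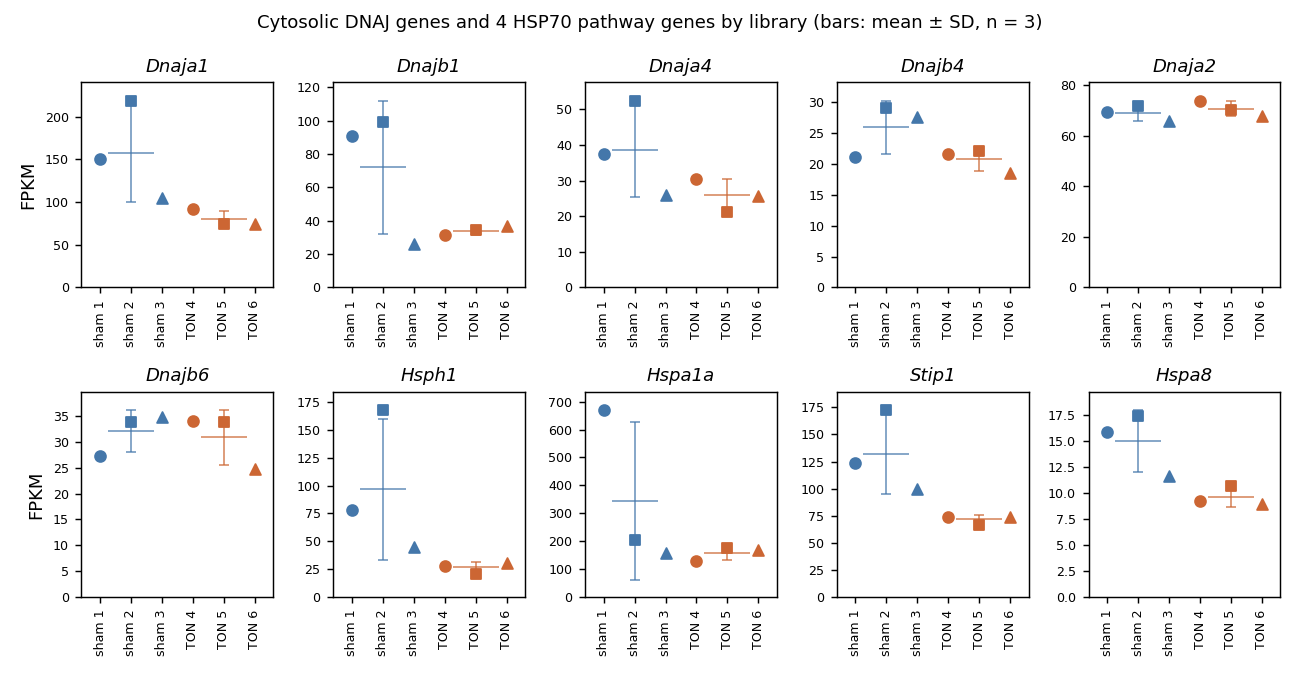
FPKM by input library for 6 cytosolic DNAJ genes and for Hsph1, Hspa1a, Stip1 and Hspa8, with the group mean and SD as bars (n = 3 for each group). Sham 2 is the highest library for Dnaja1, Dnajb1, Dnaja4, Hsph1, Stip1 and Hspa8 and sham 1 for Hspa1a, and the 3 TON libraries of each of these genes lie close together.

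The genes that work with the DNAJ proteins were read from a list of 35 HSP70 pathway genes, of which 34 were tested. None was called (limma, smallest adjusted p 0.28), and 2 were higher and 7 lower in TON at an unadjusted p under 0.05, beside the shares of all genes given above. Without overlap, 4 were higher and 8 lower in TON, beside 10.8% and 5.33% of all genes. Hspa1a, the inducible cytosolic HSP70, and Hspa5, the HSP70 of the ER known as BiP, were the 2 most abundant of those listed. The entry named Hspa8 had a mean of 12.3 FPKM and a span of chr5:103044061-103210798. Whether this entry measures HSC70 in full was not checked. Hspa1a was at 668.6, 205.2 and 157.0 FPKM in sham and at 127.0, 175.8 and 167.7 FPKM in TON. Only sham 1 and sham 2 lay above the TON range. Reads of the near-identical copy Hspa1b, which was at or below 0.127 FPKM in every library, may have been split with it, so that its level is uncertain. Hspa5 was at 176.4, 261.8 and 200.9 FPKM in sham and at 132.5, 108.5 and 149.9 FPKM in TON. These groups did not overlap, and the log2 difference of Hspa5 was -0.70 ± 0.17 (SE; limma adjusted p = 0.33).

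Hsph1, Stip1, St13, Hspa2 and Hsf1 are pathway genes singled out after their values were seen. Hsph1, Stip1 and St13 had sham libraries that all lay above the TON libraries. Hsph1, an HSP110 nucleotide exchange factor induced by heat, was at 77.9, 167.6 and 44.7 FPKM in sham and at 28.1, 20.7 and 30.7 FPKM in TON. Stip1, the scaffold HOP that links HSP70 to HSP90, was at 123.3, 172.2 and 99.7 FPKM in sham and at 74.2, 66.7 and 73.9 FPKM in TON. Sham 2 was highest and sham 3 lowest of the sham libraries in both, as in Dnaja1. St13, the HSP70-interacting protein HIP, was at 76.0, 114.9 and 78.7 FPKM in sham and at 58.2, 55.2 and 55.7 FPKM in TON. Adjusted p-values by limma were 0.35 for Hsph1, 0.28 for Stip1 and 0.33 for St13. Hspa2 and Hsf1 went the other way. Hspa2, an HSP70 known from testis, was at 4.99, 5.52 and 2.63 FPKM in sham and at 8.42, 9.40 and 9.87 FPKM in TON, without overlap (log2 difference 0.97 ± 0.27, SE; limma adjusted p = 0.36). Hsf1, the transcription factor of the heat shock response, lay higher in TON, at 30.4, 27.5 and 30.0 FPKM in sham and 34.4, 36.8 and 41.2 FPKM in TON (limma adjusted p = 0.41).

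Markers of 3 other cell types had lower means in TON, as had Dnaja1, Dnajb1 and Dnaja4. All 7 lens markers had a lower mean in TON, 4 of them at an unadjusted p under 0.05, none was at 0 in any library, and their summed level was 1891 to 4748 FPKM in sham and 1545 to 2459 FPKM in TON. The 8 markers of ocular surface epithelium summed to 15.5 to 208.5 FPKM in sham and 4.78 to 20.9 FPKM in TON, with Krt5 and Aqp5 at 0 in sham 3 and Krt5 and Krt15 at 0 in TON 6. Both sums were highest in sham 1, whereas Dnaja1, Dnaja4 and Dnajb1 were highest in sham 2. All 6 markers of the pigment epithelium had a lower log2 mean in TON, none of them at an unadjusted p under 0.05, and their summed level was 329.9, 411.9 and 649.8 FPKM in sham 1 to sham 3 and 326.0 to 461.7 FPKM in TON, with Best1 at 0 in sham 3 and TON 6. That sum was highest in sham 3, the library in which Dnajb1 was lowest. The part of these cells in the levels of the DNAJ genes was not tested. Without sham 1 and TON 5 the log2 difference of Dnaja1 was -0.86 (limma adjusted p = 0.72). In these pieces of whole retina, fewer cells of a type and less RNA per cell cannot be told apart.

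The promoters of Dnaja1 and Dnajb1 are shown because each held at least 2 matches to the heat shock element. Their match counts thus follow from that choice. RefSeq gave a promoter on the rat assembly GRCr8, running from 250 bases before to 50 bases after the start of transcription, for 35 of the 45 members by symbol. The heat shock element was searched as the letters GAANNTTC and TTCNNGAA, each of which reads the same on both strands. At least 1 match was found in 6 of the 35 promoters (17.1%), beside 15.9% of all 33469 rat promoters. Dnaja1 and Dnajb1 were the members with at least 2 matches, beside 2.28% of all promoters, and Dnaja1 held 3, beside 0.368%. Matches are in capitals, and these GRCr8 positions were not compared with those of the peaks.
Dnaja1, chr5:60638154-60638453, plus strand: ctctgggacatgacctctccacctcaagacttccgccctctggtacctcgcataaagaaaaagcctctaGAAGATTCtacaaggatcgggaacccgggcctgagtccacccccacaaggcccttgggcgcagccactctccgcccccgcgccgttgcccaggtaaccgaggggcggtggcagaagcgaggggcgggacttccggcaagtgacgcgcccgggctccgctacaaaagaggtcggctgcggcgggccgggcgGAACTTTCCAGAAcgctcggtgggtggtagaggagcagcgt
Dnajb1, chr19:41431092-41431391, minus strand: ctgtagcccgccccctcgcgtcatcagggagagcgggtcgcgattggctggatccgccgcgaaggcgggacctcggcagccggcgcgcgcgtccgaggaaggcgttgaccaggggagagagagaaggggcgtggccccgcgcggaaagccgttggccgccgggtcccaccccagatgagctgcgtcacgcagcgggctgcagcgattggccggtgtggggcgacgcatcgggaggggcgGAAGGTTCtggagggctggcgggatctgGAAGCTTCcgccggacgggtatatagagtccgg
Counted from the first transcribed base as 1, the matches of Dnaja1 begin at -181, 10 and 15, and the last 2 share 3 bases. Those of Dnajb1 begin at -11 and 18. A match describes these letters and does not show that a factor bound there. Dnajc18, Dnajc27, Dnajb6 and Dnajc5g held 1 match each, Dnaja4 held none, and no promoter was matched for Dnajb4 and 9 other members.

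Among the 10 members listed here under the ER and its membrane, 6 had a higher and 4 a lower mean in TON on the log2 scale. Those whose libraries did not overlap were Dnajc16, Dnajc25 and Dnajb12, higher in TON, and Dnajc3 and Dnajb11, lower. The shares of all genes without overlap were 10.8% higher and 5.33% lower. Dnajc3, or P58IPK, assists BiP and holds back the stress kinase PERK. It was at 39.6, 49.9 and 42.8 FPKM in sham and at 38.8, 30.6 and 28.8 FPKM in TON. All sham libraries lay above all TON libraries, by little at the nearest pair, sham 1 and TON 4. The log2 difference of Dnajc3 was -0.42 ± 0.14 (SE; limma adjusted p = 0.42). The table gives Dnajc3 the same span as a gene of low level on the other strand, and the sources used here do not say whether counting used strand, so the 2 may share reads.

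Dnajb11, or ERdj3, a soluble co-chaperone of BiP, was at 34.8, 41.0 and 47.6 FPKM in sham and at 34.6, 34.0 and 33.1 FPKM in TON. The TON libraries lay close together and the lowest sham library lay just above them (log2 difference -0.26 ± 0.13, SE; limma adjusted p = 0.53). Dnajb9 and Dnajc10 belong, with these 2, to the members known to be induced by the unfolded protein response. Dnajb9, or ERdj4, was at 22.0, 28.3 and 26.1 FPKM in sham and at 28.9, 28.3 and 24.8 FPKM in TON. Dnajc10, or ERdj5, a disulfide reductase that aids the removal of misfolded proteins, was at 34.2, 33.2 and 35.9 FPKM in sham and at 38.5, 33.2 and 35.7 FPKM in TON. Both overlapped between the groups, and Dnajb9 was singled out after its values were seen. Of the 4 induced members, 2 were thus lower in TON without overlap, beside 5.33% of all genes, and a count over 4 genes says little of the set.

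The promoter of Dnajc3 is shown as the 1 among the 35 that held the ER stress element. The element was searched as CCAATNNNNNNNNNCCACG on both strands and was found in 22 of 33469 promoters (0.0657%). The match, in capitals, begins at -133.
Dnajc3, chr15:102432417-102432716, plus strand: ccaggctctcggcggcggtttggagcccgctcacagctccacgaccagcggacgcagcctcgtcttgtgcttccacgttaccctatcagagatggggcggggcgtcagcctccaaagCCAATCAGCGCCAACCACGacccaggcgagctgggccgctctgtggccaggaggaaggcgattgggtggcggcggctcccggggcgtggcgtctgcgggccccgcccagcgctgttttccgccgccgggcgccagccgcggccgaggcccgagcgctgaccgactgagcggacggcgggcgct

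Dnajc16, a J-domain protein of the ER membrane, was at 10.7, 11.9 and 8.35 FPKM in sham and at 12.0, 17.0 and 17.6 FPKM in TON. TON 4 lay only just above sham 2, and the other TON libraries were well above (log2 difference 0.54 ± 0.20, SE; limma adjusted p = 0.45). Dnajc25, a membrane-spanning class C member, was at 7.01, 5.55 and 7.47 FPKM in sham and at 9.10, 9.31 and 9.92 FPKM in TON. These groups were clearly apart, at a depth of 29 to 49 estimated fragments per library (log2 difference 0.45 ± 0.19, SE; limma adjusted p = 0.47). Dnajb12, which turns its J domain from the ER membrane to the cytosol, was at 22.5, 25.1 and 23.1 FPKM in sham and at 25.9, 27.8 and 28.1 FPKM in TON. The gap between the groups was small, and the log2 difference was 0.20 ± 0.11 (SE; limma adjusted p = 0.56).

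Dnajc18, the most abundant member of this set, was at 61.1, 71.9 and 68.3 FPKM in sham and at 87.5, 79.3 and 68.7 FPKM in TON. TON 6 lay among the sham libraries, so that the groups overlapped. Its log2 difference was 0.22 with a 95% interval from -0.05 to 0.49. Dnajc1, which recruits BiP at the ribosome exit, was at 14.7, 12.3 and 9.94 FPKM in sham and at 12.3, 12.9 and 10.5 FPKM in TON. Dnajb14, a relative of Dnajb12, had a mean of 30.9 FPKM over the 6 libraries. Dnajc1 and Dnajb14 overlapped between the groups.

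Of the 5 members of synaptic vesicles and endosomes, Dnajc5b and Dnajc5g were at 0. The other 3 were expressed at like mean levels, between 26.2 and 43.3 FPKM. Dnajc6, or auxilin, recruits HSC70 to strip clathrin from vesicles in neurons. It was at 36.7, 42.7 and 40.9 FPKM in sham and at 40.8, 50.4 and 48.1 FPKM in TON. TON 4 lay inside the sham range (log2 difference 0.20, 95% interval -0.06 to 0.47). Dnajc5, or cysteine string protein alpha, keeps the vesicle fusion machinery folded at nerve terminals and is singled out here after its values were seen. It was at 10.9, 36.9 and 29.7 FPKM in sham and at 36.0, 58.0 and 34.6 FPKM in TON. Sham 1 was far below the other 5 libraries and TON 5 far above them. Its log2 difference was 0.83, the highest of the family, with a 95% interval from -0.13 to 1.79 (limma adjusted p = 0.54), and it was 0.32 without sham 1 and 0.090 without both sham 1 and TON 5 (limma adjusted p = 0.92). Sham 1 was also the library with the highest lens and ocular surface sums, and TON 5 that with the highest muscle sum (59.8 FPKM, with 2.76 to 4.38 FPKM in sham). The part of these cells in the level of Dnajc5 was not tested. Dnajc13, or RME-8, an endosomal co-chaperone, overlapped between the groups.

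The 7 mitochondrial members overlapped between the groups. Dnajc15, a J-domain protein of the inner membrane import motor, was at 30.1, 41.8 and 43.9 FPKM in sham and at 47.5, 33.7 and 33.9 FPKM in TON. The order of libraries was mixed, and the log2 difference was -0.01 with a 95% interval from -0.44 to 0.42. Dnaja3, or Tid1, which serves the HSP70 of the matrix, had a coefficient of variation of 6.72% around a mean of 37.3 FPKM. Dnajc11, a partner of the cristae organising complex MICOS, had means of 22.8 ± 1.32 FPKM in sham and 27.5 ± 3.55 FPKM in TON (SD, n = 3), with TON 6 within the sham range. Dnajc30, Dnajc4, Dnajc19 and Dnajc28 had means between 8.59 and 17.2 FPKM, and Dnajc19 shares its span with a gene of the other strand at a mean of 17.1 FPKM. The lowest value of Dnajc30, 6.39 FPKM in sham 3, was far from its other 5 values.

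Members of the nucleus and ribosome split in both directions. Dnajc17, a nuclear member tied to splicing, was at 9.79, 9.11 and 8.91 FPKM in sham and at 12.0, 17.3 and 11.5 FPKM in TON. All TON libraries lay above all sham libraries, TON 5 farthest (log2 difference 0.49 ± 0.19, SE; limma adjusted p = 0.46). The table gives Dnajc17 the same span as a gene of the other strand, so that reads may be shared. Dnajc21, which acts in the maturation of the large ribosomal subunit, was at 10.4, 13.9 and 14.1 FPKM in sham and at 10.6, 8.34 and 8.39 FPKM in TON. Sham 1 and TON 4 lay side by side, so that the groups overlapped by this pair (log2 difference -0.45 ± 0.19, SE; limma adjusted p = 0.48).

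Dnajc8, a spliceosome-associated member, was at 60.9, 55.1 and 65.2 FPKM in sham and at 72.4, 60.9 and 53.3 FPKM in TON. The highest and the lowest library were both TON libraries, and the 95% interval of the log2 difference ran from -0.27 to 0.33. Dnajc2, the ribosome-associated member related to yeast zuotin, had means of 26.9 ± 5.13 FPKM in sham and 20.6 ± 5.38 FPKM in TON (SD, n = 3). Dnajc9, a chaperone of histones H3 and H4, and Dnajc24, of the diphthamide pathway, overlapped between the groups.

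Among the other class C members, Dnajc7 and Dnajc12 were the most abundant. Dnajc7, a tetratricopeptide co-chaperone that passes clients between HSP70 and HSP90, was at 74.8, 78.4 and 83.6 FPKM in sham and at 80.6, 75.0 and 69.0 FPKM in TON. Dnajc12, a co-chaperone of aromatic amino acid hydroxylases, was at 32.9, 39.3 and 43.1 FPKM in sham and at 40.2, 42.4 and 43.7 FPKM in TON. Neither separated the groups, and the 95% intervals of the log2 difference were -0.29 to 0.14 for Dnajc7 and -0.14 to 0.41 for Dnajc12. Dnajc14 and Dnajc27 had means of 25.1 and 32.2 FPKM and overlapped. The members known from testis and cilia were low. Dnajb7 and Dnajb13 ranged from 0.762 to 5.84 FPKM, and Dnajb3 was listed at 0 in sham 2 and sham 3 and was at most 2.72 FPKM elsewhere. The table gives Dnajb7 the span of Xpnpep3, which lies on the other strand at a mean of 6.60 FPKM, and Dnajb3 that of Ugt1a3, at 1.00 FPKM, so that reads may be shared here too.

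The m6A peaks were read next, to find where the mark lay on the DNAJ mRNAs and whether the lists of the groups differed. Each list held 12424 to 14233 peaks. The DNAJ genes carried 69, 84 and 85 peaks in sham 1 to sham 3 and 84, 85 and 72 peaks in TON 4 to TON 6. The groups overlapped, with a mean of 79.3 ± 8.96 peaks in sham and 80.3 ± 7.23 in TON (SD, n = 3; exact permutation test, two-sided, p = 0.9). The number of members with a peak was 27, 33 and 28 in sham and 31, 32 and 29 in TON (difference of means 1.33, exact permutation test, two-sided, p = 0.7). With 3 lists against 3 the smallest p that this test can give is 0.1.

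At least 1 peak was listed for 36 of the 45 members, and all 36 had a mean of at least 1 FPKM. Of the 41 members at that level, 87.8% had a peak, beside 67.0% of all 12867 genes at that level, and 24 members (58.5%) had a peak in all 6 lists, beside 28.7% of all. These 24 included members of each role except that of testis and cilia. The 5 members at that level with no peak were Dnajc5, Dnajb2, Dnajc24, Dnajb5 and Dnajc19. Their mean levels, from 9.11 to 34.4 FPKM, lay within the range of members with peaks. The shares of members and of all genes with a peak were not matched on level. The median of the 41 members was 26.2 FPKM. Medians by library over all 15900 tested genes, a wider set than these 12867, were 3.40 to 3.51 in log2(FPKM + 1). This is another scale than that of the members, so these medians cannot be compared directly. The part of level in these shares was not tested. The false discovery rate that MACS gave the DNAJ peaks had medians of 28.4% to 74.8% by list, and 2 of all these peaks, both in sham 1, were under 5%.

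**Figure D4:**
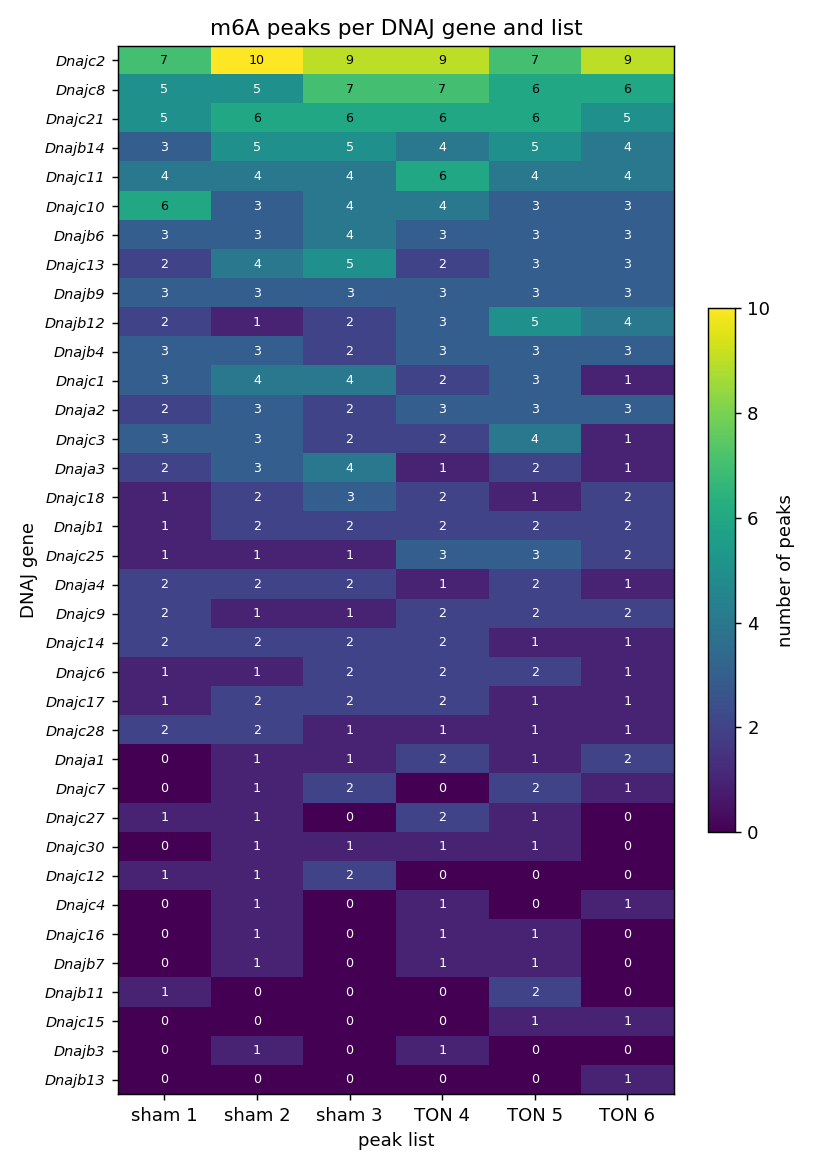
Number of m6A peaks in each of the 6 lists for the 36 DNAJ genes with at least 1 peak, as the number in each cell and its color, ordered by the total. Dnajc2, Dnajc8 and Dnajc21 head the order with 5 to 10 peaks in each list, and Dnajb9 has 3 in every list.

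The 3 members with the most peaks act in the nucleus or at the ribosome. Dnajc9, Dnajc17 and Dnajc24, listed under the same role, had 10, 9 and 0 peaks in total over the 6 lists. Dnajc2 had 7, 10 and 9 peaks in sham 1 to sham 3 and 9, 7 and 9 in TON 4 to TON 6. Dnajc8 had 5, 5 and 7 in sham and 7, 6 and 6 in TON, and Dnajc21 had 5, 6 and 6 in sham and 6, 6 and 5 in TON. None of these 3 separated the groups. Peaks that overlapped by 1 base or more, within or between lists, were joined into regions. Dnajc2 had 11 regions, a number reached by 1.98% of the 9329 genes with a region. Its 11 regions were spread over the gene, with midpoints from 0.398% to 89.0% of the way along the span that the expression table gives. Whether they lie in exons or introns was not analysed here, since the sources used here do not give the genome build of the positions.

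Over all members 128 regions were found, of which 37 were held by all 6 lists and 25 by a single list. The shares were 28.9% and 19.5%, beside 21.4% and 28.2% of all 24605 regions. Peaks in the 37 shared regions had a median fold enrichment of 11.0 over input and those in the 25 single-list regions 5.50. Among the 37 regions held by all 6 lists, that with the highest mean fold enrichment lay in Dnajc8 (chr5:154408496-154408587), where the highest peak of each list was enriched 14.6, 36.0 and 33.4 times in sham and 33.3, 31.9 and 44.1 times in TON. Sham 1 was the low library and the other 5 lay close to each other. The next of these 37 lay in Dnajc21 (chr2:84235352-84235420), at 15.3, 17.9 and 15.8 times in sham and 39.9, 12.5 and 36.1 times in TON. TON 5 was the lowest library there and the other TON libraries the highest. Regions held by fewer lists reached like values, such as 1 in Dnajc8 (chr5:154409587-154409662) at 47.8 times in sham 3 and 33.3 times in TON 4, with no peak in the other 4 lists. Another, in Dnajb1 (chr19:35726334-35726683), was at 35.9 and 27.6 times in sham 2 and sham 3 and at 17.7, 18.8 and 15.7 times in TON, with no peak in sham 1.

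Fold enrichment ran higher in some lists as a whole, with a median over all peaks of 6.63 to 7.16 in sham and of 7.21 to 9.63 in TON. Of the 37 shared DNAJ regions, 4 were higher in all TON lists than in any sham list and 1 was lower, beside 25.4% and 3.73% of all shared regions. After each value was divided by the median of its list, a scale chosen after seeing the data, 3 were higher and 6 lower, beside 15.9% and 8.55%. Regions in Dnajb4, Dnajc18 and Dnajc28 were higher on both scales and 1 in Dnajc10 was lower on both. Dnajb4 held the region chr2:276074015-276074583, at 10.1, 9.61 and 9.65 times in sham and 18.4, 13.9 and 23.7 times in TON. No test was made of these values.

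Of the 128 DNAJ regions, 3 were gained, with a peak in each TON list and in none of the sham lists, and 3 were lost, with the opposite pattern. This is 2.34% each way, beside 1.67% gained and 1.86% lost among all regions. The gained regions lay in Dnajc6, Dnajb12 and Dnajc25 and the lost regions in Dnajc1, Dnajc10 and Dnajc12.

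The gained region of Dnajc6 (chr5:124349345-124349464) had the strongest peaks of the 6. Its peaks were enriched 15.5, 10.7 and 15.8 times over input in TON 4 to TON 6, at a false discovery rate of 14.7% to 16.7%. The midpoint lay 21240 bases before the end of the gene span. At the level of the whole gene, Dnajc6 overlapped between the groups, as given above. In Dnajb12 the gained region (chr20:31265192-31266938) lay near the end of the gene, 95.1% of the way along it. It was enriched 8.38, 4.91 and 8.92 times in TON. Peaks of Dnajb12 numbered 2, 1 and 2 in sham and 3, 5 and 4 in TON, without overlap.

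In Dnajc25 the gained region (chr5:80314940-80315201) lay at the very end of the gene, 99.3% of the way along. It was enriched 6.85, 5.10 and 7.20 times in TON. Dnajc25 had 1 peak in each sham list and 3, 3 and 2 in the TON lists. Dnajc25 and Dnajb12 were also 2 of the 4 members whose mRNA levels were higher in TON without overlap. With median centring 2 members were higher without overlap, beside 6.69% of all genes, and Dnajc25 was among them but Dnajb12 was not. The part of the mRNA level in the number of peaks called was not tested.

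Peaks of the lost regions were enriched less than those of the gained region of Dnajc6. Their values overlapped those of the gained regions of Dnajb12 and Dnajc25. That of Dnajc10 (chr3:74132748-74132895) was enriched 7.83, 7.21 and 7.84 times in the sham lists, and that of Dnajc1 (chr17:86781630-86781795) 6.67, 5.57 and 8.57 times. The lost region of Dnajc12 (chr20:8213809-8213948) was enriched 4.70, 3.14 and 5.59 times, and Dnajc12 was the 1 member with a peak in all 3 sham lists and none in any TON list. Their mRNA levels overlapped between the groups in all 3 cases. False discovery rates reached 100% for at least 1 peak in each of these regions. In the gained regions of Dnajb12 and Dnajc25 they reached 50.28% and 64.69%. The lists differed in this rate as a whole. Its median over all peaks was 30.8%, 44.1% and 93.0% in sham 1 to sham 3 and 29.65% to 45.21% in TON. With a score of at least 100 required, the gained regions were those of Dnajc6, Dnajc25 and 1 of Dnajc9, and the lost region was that of Dnajc10. Of all 18416 regions at that score, 388 were gained and 315 lost. In the top 50% of each list by score no DNAJ region was lost, and the gained ones were those of Dnajc6 and Dnajc9. There 242 of all 12428 regions were gained and 294 lost.

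**Figure D5:**
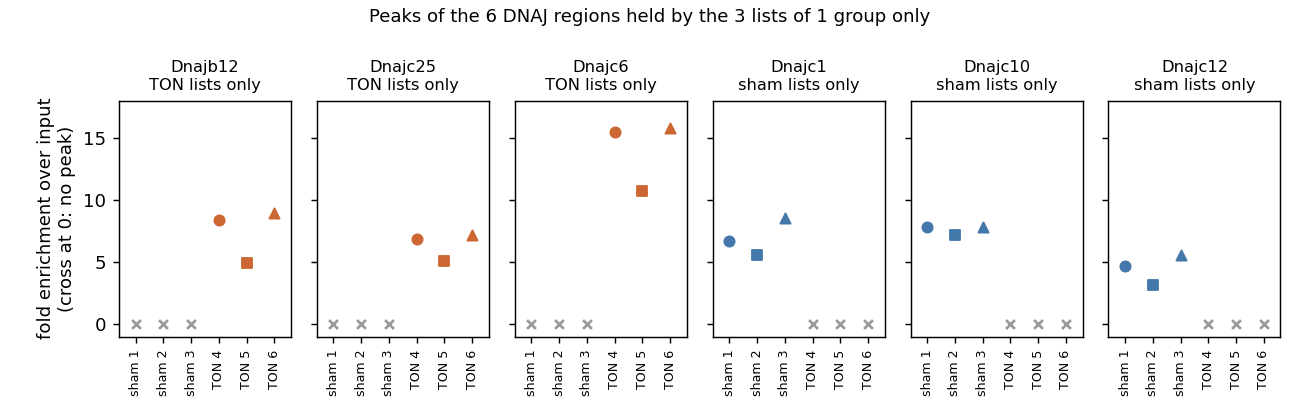
Fold enrichment over input of the peaks in the 6 DNAJ regions that were gained or lost, by peak list (blue, sham; orange, TON), with a gray cross where the list has no peak. Values run from 3.14 in sham 2 for Dnajc12 to 15.8 in TON 6 for Dnajc6.

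Peaks of the heat-inducible members were also set beside their levels. Dnaja1 had 0, 1 and 1 peaks in sham and 2, 1 and 2 in TON, and none of its 3 regions was held by all 6 lists. Dnajb1 had 1, 2 and 2 peaks in sham and 2 in each TON list. Its region chr19:35728869-35730075, near the end of the gene, was enriched 16.7, 10.7 and 9.97 times in sham and 15.7, 7.61 and 12.4 times in TON, so that the groups overlapped. Dnajc3 had 3, 3 and 2 peaks in sham and 2, 4 and 1 in TON, and Dnajb11 had peaks only in sham 1 and TON 5.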

How the data were processed

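The authors trimmed reads with cutadapt 1.9.3, aligned them with HISAT2 2.0.4, computed expression with Cufflinks and Cuffdiff, and called peaks for each sample with MACS 1.4.2 (input as control). The methods name a human build for these rat samples, and the sources used here do not give the build of the deposited positions. Labels and methods also name different library kits. The deposited expression table holds FPKM and a signal of fragments scaled by the authors. Low values of this signal were whole multiples of 1 step within 0.1 in 96.4% to 97.0% of cases, from which depth was estimated. The deposited peak lists hold a score (a multiple of the negative log10 of the p-value), the ratio to input called fold enrichment, a percent false discovery rate and, as another unit, the length in bases. Positions were converted to count from 1. The authors' comparison columns were not used.

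Genes whose mean reached 0.1 FPKM in sham or TON were compared with limma 3.58.1 (R 4.3.3) on log2(FPKM + 1), with a trend of variance on level and p-values adjusted by Benjamini-Hochberg over 15900 genes, 3 sham against 3 TON libraries. Differences are on this scale and understate changes of low genes. Peaks were analysed in Python with pandas 2.3.3. The fit was tested on simulated data. Named members were those at an unadjusted p under 0.05, without overlap, among the 10 most abundant, or with a gained or lost region, and Dnaja4, Dnajb2, Dnajb4, Dnajb9 and Dnajc5 were added with their values known. The members and gene lists were chosen with earlier results of these data known.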

Additional observations from a re-analysis of the deposited data

How the results depend on the processing

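Counts of called DNAJ genes stayed at 0 with a pseudocount of 0.1 or 0.01, without a filter, with a minimum of 1 FPKM, with median centring, quantile normalization, no intensity trend or scaled fragments, and without both sham 1 and TON 5. Leaving out 1 library gave 0 to 1 (1 only without sham 3, Dnajb1). With scaled fragments 44 genes of all were called (32 higher, 12 lower) and 1 pathway gene (Stip1, lower), and leaving out 1 library gave 3 genes (without sham 1) to 15 (without sham 3) of all and 0 to 0 pathway genes. DNAJ genes without overlap numbered 8 to 13 when 1 library was left out, where fewer libraries have to be apart, and 7 under each scaling. Non-overlap among all genes rose too, from 1725 higher and 847 lower of 15900 to 3253 and 1797 of 15846 without TON 4. In that setting 5 members were higher and 8 lower. Over 23 named members and 15 alternatives, 331 of 345 log2 differences kept their direction. Reversals were Dnaja2 (-0.045), Dnajc10 (-0.028) and Dnajc8 (-0.047) with median centring, Dnajc1 (0.038) and Dnajb9 (-0.021) without sham 1 and TON 5, and, with 1 library left out, Dnajb2 (-0.39 to 0.019), Dnajc1 (-0.17 to 0.092), Dnajc15 (-0.17 to 0.090) and Dnajc8 (-0.079 to 0.14), and the cause was not tested. Differences in DNAJ peaks per list turned to -2.67 in the top 50% of each list and to -0.333 with equal numbers of top peaks, and ran from -4.17 to 5.17 with 1 list left out. Those in members with a peak turned to -0.333 in the top 50% and ran from 0.167 to 3.17. DNAJ regions gained numbered 8 of 128 when 2 of the 3 lists sufficed, beside 1767 of all 24605 regions. With 1 list left out they numbered 3 to 5, beside 554 to 1411 of all regions. DNAJ regions lost numbered 1 at a score of at least 100, 0 in the top 50% and 7 with equal numbers of top peaks. Lost among all regions were 315 of 18416, 294 of 12428 and 423 of 22938 in these settings. When 2 lists sufficed, 8 DNAJ regions were lost, beside 1699 of all 24605. With 1 list left out 3 to 7 were lost, beside 511 to 1165 of all regions. Planned count-based tests were not run because whole reads could not be recovered. No paired analysis was possible because sham samples are numbered 1 to 3 and TON samples 4 to 6. Depth limits low members, such as Dnajc30 at 11 to 38 estimated fragments.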
